A study of Homo sapiens with 12 samples.

Results

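The 48 genes described here encode the machinery that takes a cell across the G1/S boundary and copies its DNA. They were taken as a list of gene symbols grouped by role, and they are 48 of the 13882 genes that could be tested on these arrays. All 48 were on the array, and all 48 were above the median signal of the array on all 12 arrays: the lowest single member value was 7.64 on the log2 scale, against array medians of 5.92 to 6.18. They fall into 9 roles: origin licensing, helicase activation, polymerases and primase, the sliding clamp and its loader, single-strand binding and Okazaki fragment maturation, nucleotide supply, the G1/S switch, chromatin and histone supply, and S-phase checkpoint and repair.

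In G1, the origin recognition complex, CDC6 and CDT1 load the ring-shaped MCM helicase onto DNA. At the G1/S boundary, cyclin E with its kinase releases E2F factors from the retinoblastoma protein, and E2F raises transcription of most of these genes; CDC45 and the GINS complex then turn the loaded MCM ring into an active helicase. Polymerases, the PCNA clamp, its RFC loader, nucleotide synthesis and histone supply follow, so that the transcripts of these genes are generally more abundant in populations with more cells in late G1 and S phase. In bulk samples such as these, fewer cells in S phase and less RNA per cell cannot be told apart.

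The study exposed 2 human lung adenocarcinoma cell lines to a direct-current electric field. CL1-5 is a more invasive subline selected from CL1-0. Cells sat overnight in a microfluidic chip in DMEM with 10% FBS, were then held for 2 h in serum-free DMEM with a field of 300 or 0 mV/mm, and were trypsinised for total RNA and hybridisation to Affymetrix arrays. The 4 groups of 3 arrays were CL1-5 with field (300 mV/mm), CL1-5 without field (0 mV/mm), CL1-0 with field (300 mV/mm) and CL1-0 without field (0 mV/mm). Change to serum-free medium, the chip and trypsin were shared by all 4 groups, and the 0 mV/mm arrays were therefore not taken from cells in growth medium. Each line is 1 cultured population, so a difference between the lines is a difference between these 2 cultures. The labels call the 3 arrays of a group biological replicates. Values are log2 of the deposited signal, which was scaled so that each array has the same trimmed mean (500.07 to 500.08). Array medians before log2 were 60.7 to 72.4.

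The arrays with replicate number 1 stood apart in all 4 groups. The dap poly-A spike-in RNA gave a signal of 3.20 to 11.9 on these 4 arrays, where the remaining 8 had 1448 to 1968, and the 18S rRNA probe set gave 49.7 to 134, where they had 5577 to 8406. The 3′/5′ signal ratios were 0.910 to 1.02 for GAPDH and 1.26 to 1.54 for ACTB in replicate 1. They were 0.920 to 0.953 for GAPDH and 1.21 to 1.32 for ACTB on the remaining arrays. Both upper ends in replicate 1, 1.02 and 1.54, came from CL1-5 with field. The other replicate 1 arrays had 0.910 to 0.971 for GAPDH and 1.26 to 1.30 for ACTB. The replication genes moved with this split more often than other genes did. Replicate 1 was the lowest array in all 4 groups for 23 of the 48 members (47.9%), against 20.9% of all genes and 12 of 40 G2/M and mitosis genes (30%); it was the highest in all 4 groups for 4 members (8.33%), POLA2, POLD1, LIG1 and MCM5, against 18.1% of all genes. The median member was 0.33 lower (log2) in replicate 1 than in replicates 2 and 3, and the median of all genes was 0.07 lower. Values with replicate number as a block are given below where they change the call of a member that is described, and counts with the block for each list. The series names no pairing, and a replicate pair below means arrays of the same number. Of the 6 epithelial markers, KRT7, KRT8 and KRT18 were above the array median on all 12 arrays, CDH1 on 9, EPCAM on 6 and KRT19 on 2; EPCAM averaged 4.86 and 5.18 in CL1-5 with and without field, against 9.28 and 9.14 in CL1-0. Of the 3 alveolar markers, NKX2-1 and SFTPB were above it on all 12 and SFTPC on 6. Markers of other cell types were not all low. Of the 6 fibroblast genes COL1A1 was above the median on all 12 arrays, DCN on 7, PDGFRB on 4, COL3A1 on 3, COL1A2 on 2 and LUM on 1. Of the 4 endothelial genes, PECAM1 was above it on all 12 and differed between the lines, with means of 8.84 and 8.80 in CL1-5 with and without field, against 6.90 and 6.74 in CL1-0; KDR was above the median on 6 arrays, and CDH5 and VWF on none. Of the 4 leukocyte genes, CD3E was above it on 6 arrays and PTPRC, CD14 and LYZ on none. The part of these markers in the results was not tested.

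**Figure D1:**
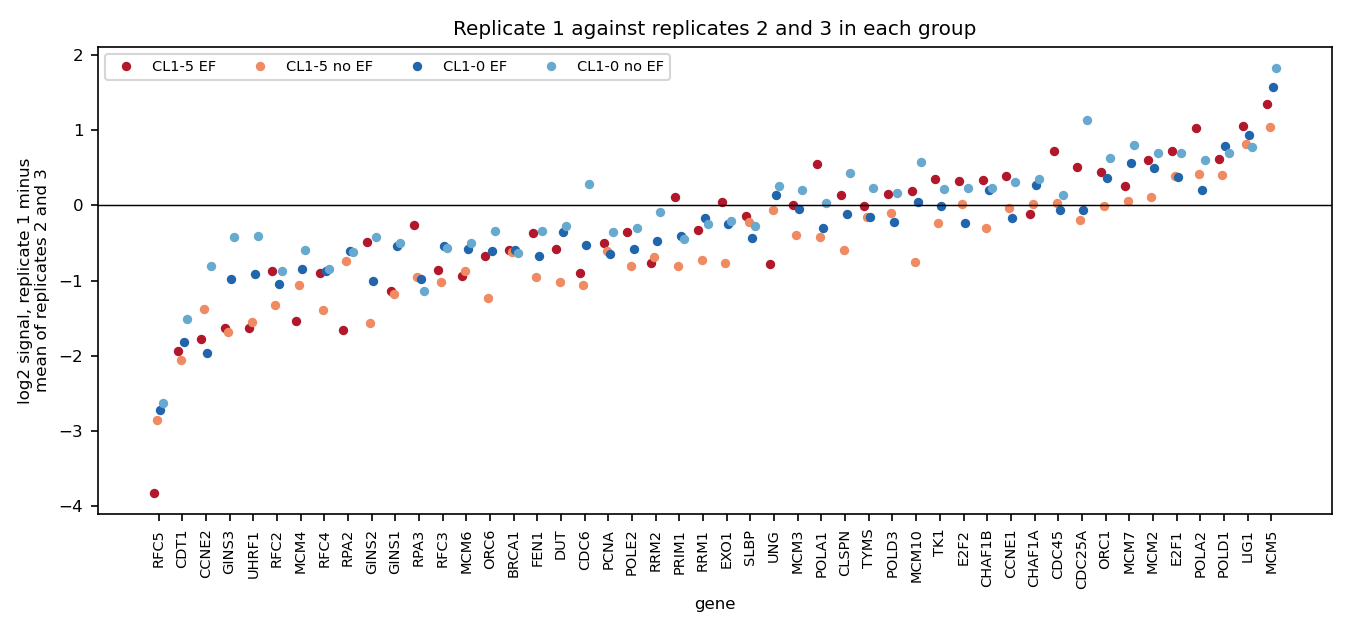
Each point is 1 group's difference in log2 signal between replicate 1 and the mean of replicates 2 and 3, for each of the 48 genes in order of the mean over groups. RFC5 and CDT1 lie below 0 and MCM5 and LIG1 above 0 in all 4 groups.

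The genes most displaced in replicate 1 were members of different complexes. RFC5, a subunit of the clamp loader, differed by -3.01 (log2, replicate 1 minus the mean of replicates 2 and 3, averaged over the groups). CDT1, the licensing factor that brings MCM to the origin, differed by -1.83, CCNE2, which encodes cyclin E2, by -1.48, the GINS subunit GINS3 by -1.18 and UHRF1, which reads hemimethylated DNA behind the fork, by -1.12. In the other direction, MCM5 differed by 1.45 and the nick-sealing ligase LIG1 by 0.89. Subunits of 1 complex lay on opposite sides, with MCM5 above 0 and MCM4 at -1.01. These values are those of the probe set that stood for each gene. The SE of the line difference was 1.20 for this RFC5 probe set, and 0.30 and 0.20 for its others. For the probe set used and the second one, it was 0.74 and 0.54 for CDT1 and 0.65 and 0.31 for CCNE2. It was 0.55 and 0.27 for GINS3, and 0.61 and 0.77 for MCM5. The replicate 1 difference of the other probe sets was not computed. The labels do not say what was different about replicate 1.

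The promoters of these genes carried E2F-type letters more often than those of other genes. They are shown because E2F binding at the start site is what ties the group together in textbooks, and because 2 of the genes that differed between the lines, E2F2 and MCM7, have such letters, as does MCM3, which lay on the other side of 0 from MCM7. RefSeq promoter windows (GRCh38.p14, 250 bases before to 50 after a gene's start) were at hand for 42 of the 48 members. The 4 spellings searched were TTTCCCGC, TTTGGCGC, TTTGCCGC and TTTCGCGC, on both strands and with overlaps counted once per gene. At least 1 was present at any listed start of 24 of 42 members (57.1%), against 3.99% of 27305 genes and 3 of 33 G2/M and mitosis genes (9.09%). Counting only the first listed start of each gene, the shares were 52.4% of members and 3.33% of all genes. The members called between the lines did not hold the letters more often than the other members. Of the 6 called, 3 had them at any listed start (50%: E2F2, MCM7 and UNG) and 2 at the first (33.3%). Of the 23 called with the replicate block that had a window, 11 had them (47.8%). TTTGAA, the core letters of the CHR element known from mitotic promoters, was present in 3 of 42 members (7.14%), against 25 of 33 G2/M genes (75.8%) and 18.2% of all genes. CCAAT was present in 24 of 42 members (57.1%), 26 of 33 G2/M genes (78.8%) and 39.7% of all genes. The following are the 250 bases before the start, 5′ to 3′ on the gene's strand, with the E2F-type letters on either strand in capitals. Where a gene had several listed starts, the window given is the first that held such letters. E2F2 and MCM3 have 1 listed start each, and MCM7 has 3. E2F2 (chr1:23531234-23531483, minus strand) has TTTGGCGC starting 42 bases before the start. MCM7 (chr7:100101398-100101647, minus strand) has TTTCCCGC on the opposite strand, 187 bases before the start, and TTTCGCGC 9 bases before it. MCM3 (chr6:52284743-52284992, minus strand) has TTTCCCGC starting 174 bases before the start.
E2F2: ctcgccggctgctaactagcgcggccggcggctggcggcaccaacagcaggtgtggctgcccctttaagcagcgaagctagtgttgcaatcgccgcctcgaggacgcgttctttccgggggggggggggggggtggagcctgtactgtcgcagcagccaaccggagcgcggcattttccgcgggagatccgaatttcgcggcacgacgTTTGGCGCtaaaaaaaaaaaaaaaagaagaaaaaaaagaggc
MCM7: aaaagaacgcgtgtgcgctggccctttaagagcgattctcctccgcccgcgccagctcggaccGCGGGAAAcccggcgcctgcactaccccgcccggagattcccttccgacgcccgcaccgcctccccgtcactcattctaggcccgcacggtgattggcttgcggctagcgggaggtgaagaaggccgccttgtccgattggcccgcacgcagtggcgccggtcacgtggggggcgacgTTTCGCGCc
MCM3: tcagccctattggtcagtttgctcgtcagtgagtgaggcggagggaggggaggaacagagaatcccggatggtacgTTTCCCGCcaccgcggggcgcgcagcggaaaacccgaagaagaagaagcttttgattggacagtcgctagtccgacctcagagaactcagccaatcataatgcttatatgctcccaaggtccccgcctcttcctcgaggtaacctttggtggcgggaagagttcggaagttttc
UNG, with 2 listed starts, also held 1 copy (TTTGCCGC, 63 bases before the start at position 109098172 of chromosome 12). None of the 4 spellings was in the upstream windows of SLBP, TK1 or CDC45. Without field, the 24 members with the letters had a median CL1-5 over CL1-0 difference of 0.09 (log2) and the 18 without them one of -0.18; under field the medians were -0.31 and -0.41. Without field, 10 of the 24 and 14 of the 18 lay below 0, and under field 16 of the 24 and 13 of the 18; the difference between members with and without the letters was not tested.

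**Figure D2:**
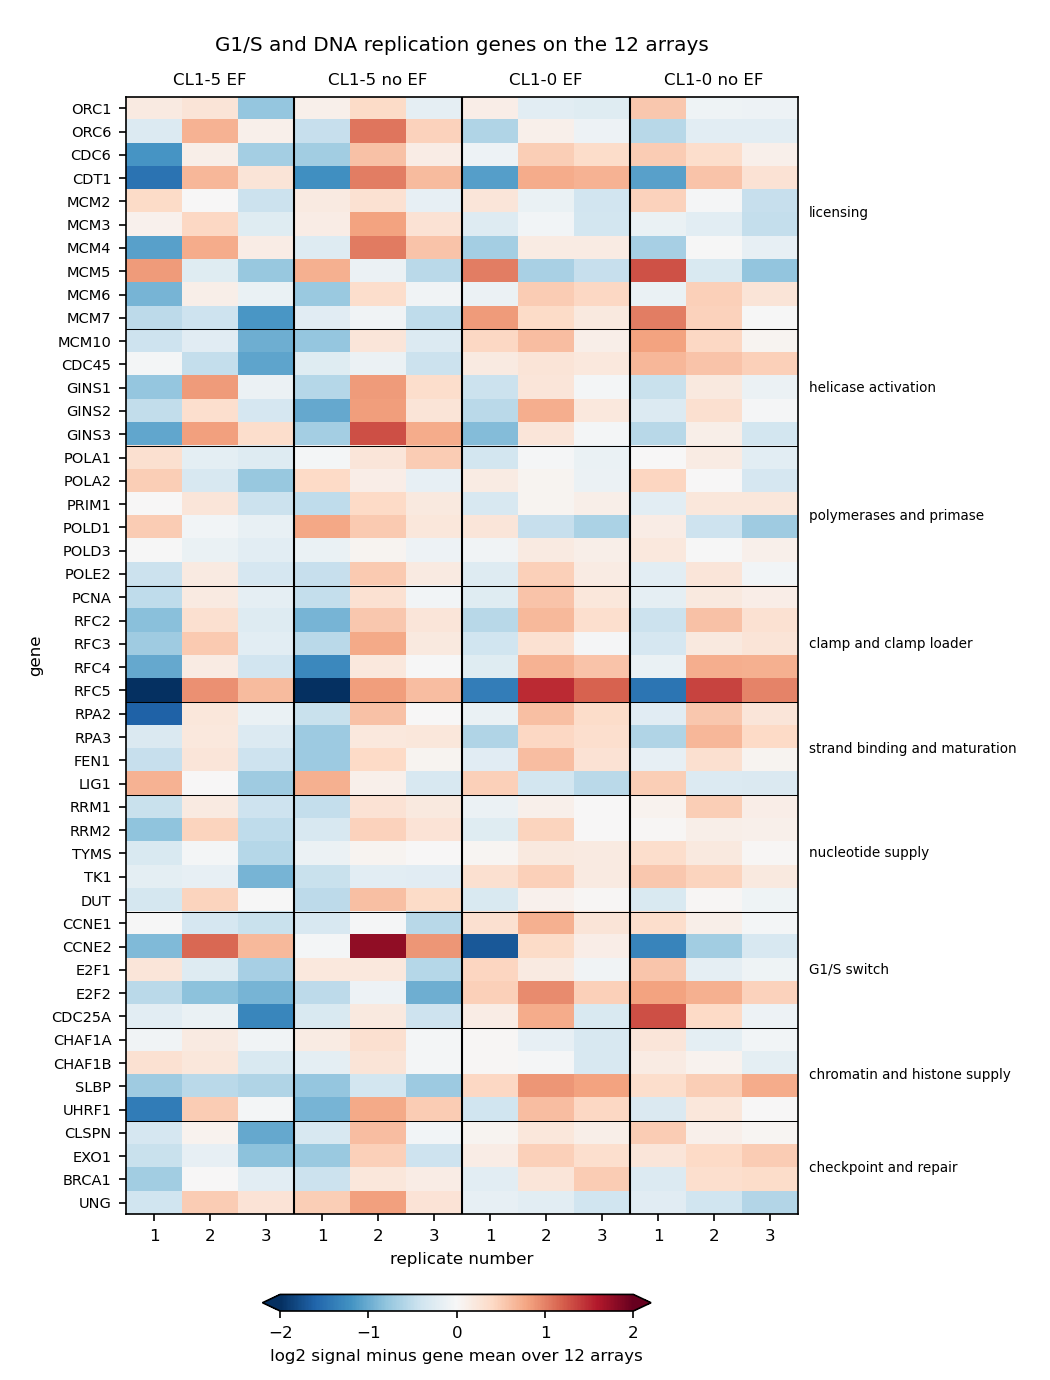
Log2 signal of the 48 genes on the 12 arrays, minus each gene's mean over the 12, ordered by role; columns are replicates 1 to 3 of CL1-5 EF, CL1-5 no EF, CL1-0 EF and CL1-0 no EF, and colours stop at 2 log2 units. The rows of SLBP and E2F2 change colour between the lines, and the rows of RFC5 and CDT1 change colour with the replicate number.

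Between the lines without a field, most replication genes did not pass the test, and the few that did were the histone mRNA binding factor SLBP, the transcription factor E2F2 and the helicase component CDC45, all lower in CL1-5, and the uracil glycosylase UNG, higher in CL1-5. These 4 of 48 (8.33%) stand beside 18% of all 13882 genes at the same threshold (limma, Benjamini-Hochberg adjusted p under 0.05 over all genes); among all genes, 9.03% were called higher and 8.93% lower in CL1-5. The median difference of the 48 was -0.09 (log2, CL1-5 minus CL1-0), against -0.03 for all genes, and 28 of 48 lay below 0. With the replicate number as a block, 16 members passed (33.3%, against 35.5% of all genes): 9 lower, where 18.8% of all genes were lower, and 7 higher (14.6%, against 16.7%). On the 8 arrays with spike-in signal alone, 12 passed (25%, against 30.9% of all genes): 8 higher in CL1-5 (16.7%, against 14.4% of all genes) and 4 lower (8.33%, against 16.4%). The line groups did not overlap for 9 members (18.8%, against 34% of all genes), 4 of them higher in CL1-5 (8.33%, against 16.1%) and 5 lower (10.4%, against 17.9%). The share called in either direction was thus below or near the background in each of these fits.

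SLBP encodes the protein that binds the stem-loop at the end of replication-dependent histone mRNAs and is made for S phase. Its log2 signal was 11.78, 12.20 and 11.83 in CL1-5 without field, against 12.90, 13.05 and 13.30 in CL1-0 without field. The groups did not overlap, and the difference was -1.15 ± 0.19 (SE, adjusted p = 0.00118 from limma), a 2.22-fold lower signal in CL1-5. Under field SLBP was 11.84, 12.02 and 11.95 in CL1-5, against 12.97, 13.44 and 13.37 in CL1-0. The arrays of that second comparison are not shared with the first, and the difference was -1.32 ± 0.19 (adjusted p = 0.000434). The 6 CL1-5 values were thus all at or below 12.20 and the 6 CL1-0 values all at or above 12.90.

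E2F2 encodes an activating E2F factor. It measured 8.96, 9.38 and 8.51 in CL1-5 without field, against 10.29, 10.18 and 9.94 in CL1-0 without field, a difference of -1.19 ± 0.26 (adjusted p = 0.0072, limma). Under field it measured 8.93, 8.66 and 8.55 in CL1-5, against 9.96, 10.43 and 9.95 in CL1-0, a difference of -1.40 ± 0.26 (adjusted p = 0.00258). All 6 CL1-5 arrays were below all 6 CL1-0 arrays. E2F2 has 3 probe sets and all 3 were lower in CL1-5 in both comparisons, 1 of them past the test; with the mean of the 3 in place of the brightest, the adjusted p was 0.139 without field and 0.151 under field. Its relative E2F1 lay between -0.15 and -0.41 in the same comparisons and did not pass (adjusted p = 0.823 and 0.438).

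**Figure D3:**
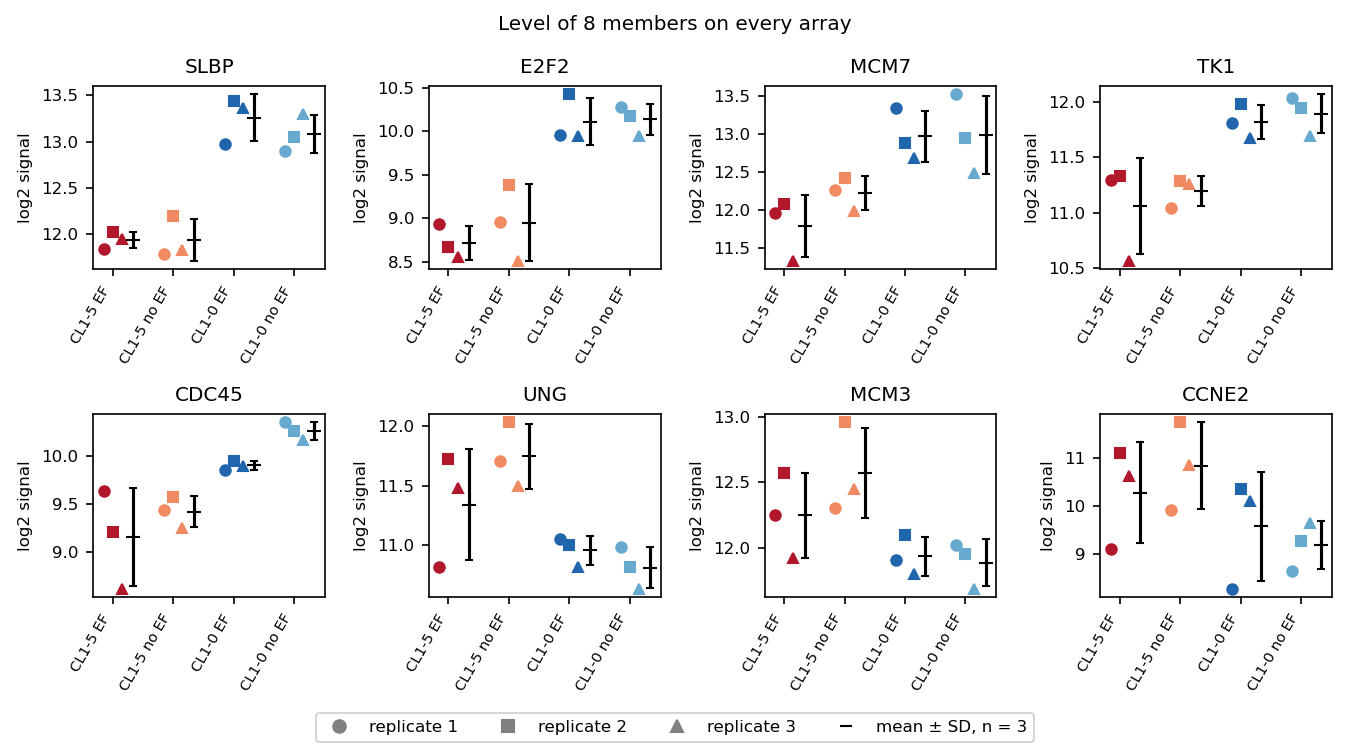
Log2 signal of 8 genes on each array, in the order CL1-5 EF, CL1-5 no EF, CL1-0 EF, CL1-0 no EF; symbols mark the replicate number and bars give the mean ± SD (n = 3). SLBP, E2F2, MCM7, TK1 and CDC45 separate the lines with and without field, and CCNE2 is low in replicate 1 of each group.

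CDC45, which joins MCM and GINS to form the working helicase, measured 9.44, 9.57 and 9.25 in CL1-5 without field, against 10.35, 10.25 and 10.16 in CL1-0 without field. The difference was -0.83 ± 0.25 (adjusted p = 0.0353, limma). Under field it measured 9.64, 9.21 and 8.62 in CL1-5, against 9.86, 9.94 and 9.90 in CL1-0; there the groups again did not overlap, but the difference of -0.74 ± 0.25 had an adjusted p of 0.0544, and 0.00912 with the replicate block. The call without field was lost in 8 of the 12 fits that leave out 1 array, among them all 6 that leave out an array of the groups compared (adjusted p up to 0.12).

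UNG removes uracil from DNA, including uracil incorporated at the fork. It measured 11.71, 12.03 and 11.49 in CL1-5 without field, against 10.98, 10.82 and 10.63 in CL1-0 without field, a difference of 0.93 ± 0.24 (adjusted p = 0.0197, limma). Under field it measured 10.82, 11.72 and 11.48 in CL1-5, against 11.05, 11.00 and 10.82 in CL1-0. Here the groups overlapped through replicate 1 of CL1-5, and the difference of 0.38 ± 0.24 did not pass (adjusted p = 0.319, and 0.146 with the replicate block). On the 8 arrays with spike-in signal alone it was 0.69 (adjusted p = 0.0216). The call without field was lost when replicate 2 or 3 of CL1-0 without field, or replicate 2 of CL1-5 without field, was left out (adjusted p up to 0.0821).

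Under field, 4 of 48 members passed the test between the lines (8.33%, against 19.4% of all genes), and all 4 were lower in CL1-5 (against 9.63% of all genes lower and 9.81% higher): SLBP, E2F2, the helicase subunit MCM7 and the thymidine kinase TK1. The median difference was -0.31 (log2), against -0.08 over all genes, and 33 of 48 members lay below 0. With the replicate block, 19 passed and all 19 were lower in CL1-5 (39.6%, against 20.8% of all genes that were called lower); none was higher, against 17.3% of all genes (38.1% were called in either direction). On the 8 arrays with spike-in signal alone, 13 passed (27.1%, against 31.8% of all genes): 12 lower in CL1-5 (25%, against 16.9% of all genes) and 1 higher (2.08%, against 14.9%). The groups did not overlap for 9 members, all lower in CL1-5 (18.8%, against 19% of all genes that were lower without overlap); none was higher, against 16.8% of all genes (35.8% in either direction). The 19 were SLBP, E2F2, MCM7, RFC4, TK1, MCM6, RFC5, CCNE1, MCM10, RPA2, CDC45, EXO1, CDC6, TYMS, BRCA1, PCNA, RFC2, FEN1 and CDC25A. The lower values were not particular to the members. Of the 40 G2/M and mitosis genes, 30 lay below 0 in this comparison, with a median of -0.40. With the block, 13 of the 40 were lower in CL1-5 and 2 higher. In all 3 replicate pairs, 16 of the 40 were lower and 3 higher. Among arrays with spike-in signal, replicate 3 of CL1-5 with field had the lowest median over the members. It was -0.33 (log2, each gene's mean over the 12 arrays subtracted), where the others had 0.02 to 0.37. Its G2/M median was -0.51, where the others had 0.03 to 0.47. The median difference within replicate pairs 1, 2 and 3 was -0.27, -0.22 and -0.53, and 24 members (50%) were lower in CL1-5 in all 3 pairs, against 33.6% of all genes, and 5 (10.4%) were higher in all 3, against 28%. Within the pairs without field, the medians were -0.35, 0.18 and -0.03, and 15 members (31.2%) were lower in all 3 pairs, against 31.4% of all genes, and 6 (12.5%) higher, against 28.5%.

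**Figure D4:**
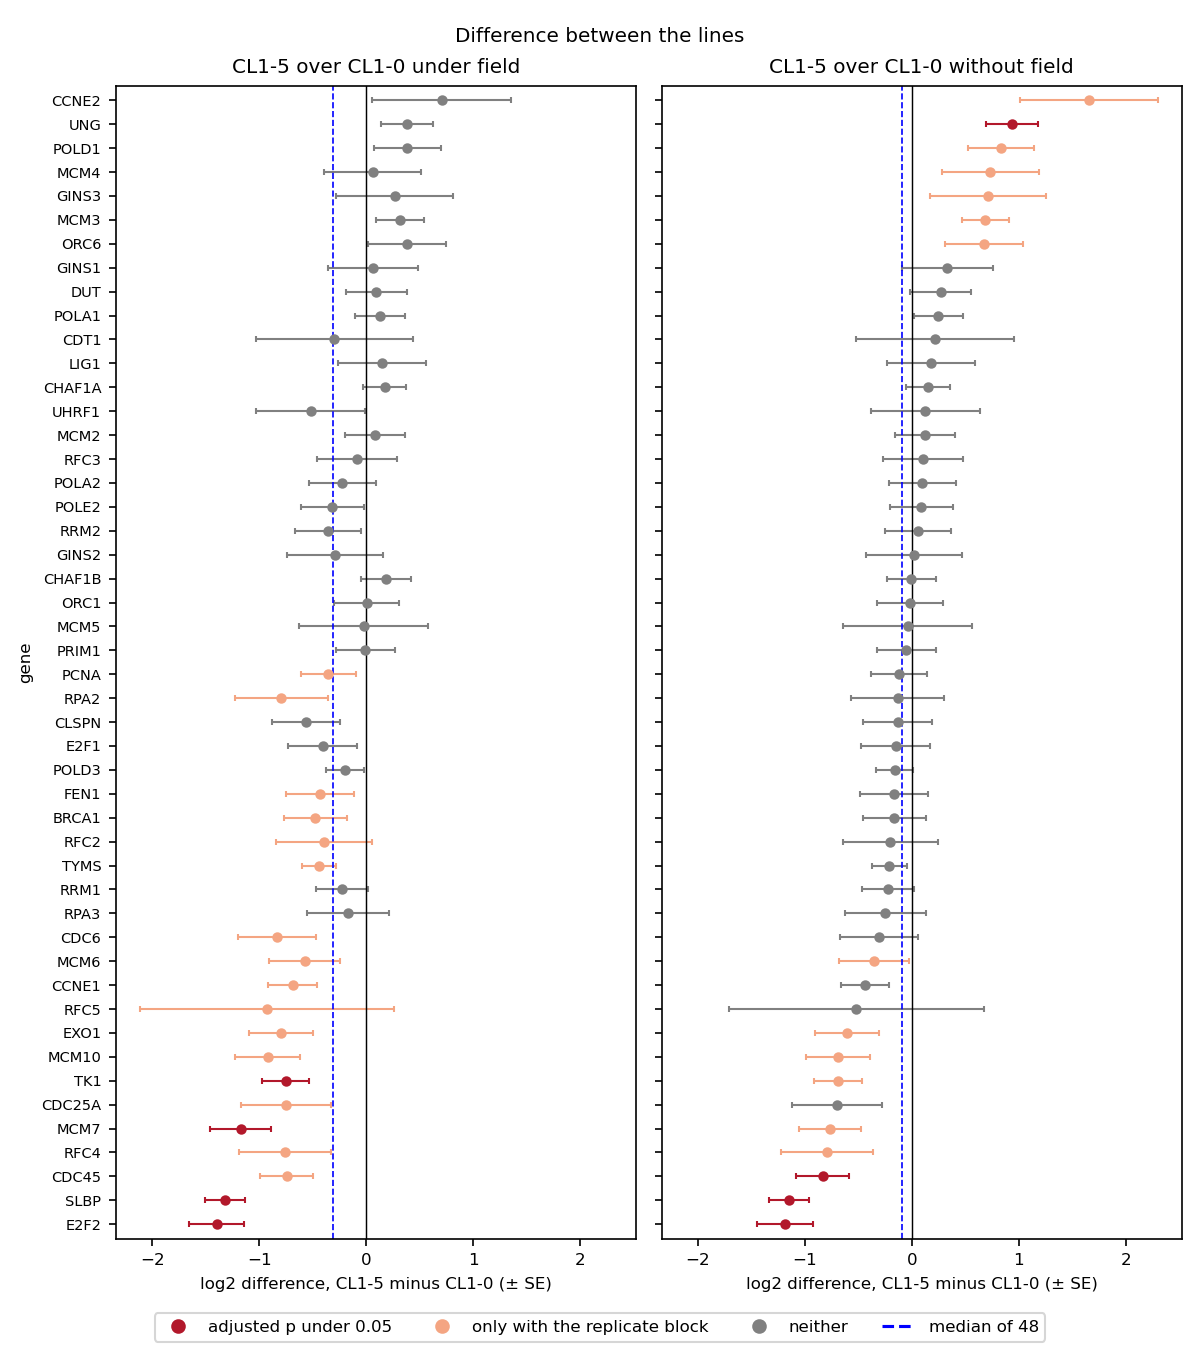
Difference in log2 signal, CL1-5 minus CL1-0, of the 48 genes with its SE, under field (left) and without field (right), in the order of the values without field. Dark red marks members past the test in the fit without the block, light red those past it only with the replicate block; the dashed medians are -0.31 under field and -0.09 without field.

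MCM7, 1 of the 6 subunits of the MCM ring, measured 11.96, 12.08 and 11.33 in CL1-5 with field, against 13.34, 12.87 and 12.69 in CL1-0 with field. The groups did not overlap, and the difference was -1.18 ± 0.29 (adjusted p = 0.0137, limma), a 2.26-fold lower signal in CL1-5. Without field MCM7 measured 12.26, 12.43 and 11.98 in CL1-5, against 13.52, 12.95 and 12.49 in CL1-0. There the groups did not overlap either. The difference of -0.76 ± 0.29 passed only with the replicate block (adjusted p = 0.0928 without it, 0.00319 with it, limma). Each of its 2 probe sets was lower in CL1-5 and past the test under field. The call was lost when replicate 3 of CL1-5 with field or replicate 1 of CL1-0 with field was left out (adjusted p up to 0.0593).

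TK1, which phosphorylates thymidine in the salvage route, measured 11.29, 11.33 and 10.57 in CL1-5 with field, against 11.81, 11.97 and 11.67 in CL1-0 with field. The difference was -0.75 ± 0.22 (adjusted p = 0.0333, limma), and both of its probe sets were lower and past the test. Without field it measured 11.04, 11.28 and 11.26 in CL1-5, against 12.03, 11.94 and 11.69 in CL1-0. The groups did not overlap in either comparison, and the difference without field, -0.69 ± 0.22, had an adjusted p of 0.0507 (0.00595 with the replicate block). The call under field was lost when replicate 3 of CL1-5 or any of the CL1-0 arrays with field was left out (adjusted p up to 0.12).

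Among the licensing genes, subunits of the MCM ring lay on both sides of 0. On the probe sets used, the ORC subunit genes ORC1 and ORC6 and the loading factors CDC6 and CDT1 differed by between -0.31 and 0.68 without field, with no call. The second CDT1 probe set was at -0.69 ± 0.54 without field, where the one used was at 0.22, and the second CDC6 probe set was at -0.32. Neither passed. Of the MCM subunits, MCM3 was 0.69 ± 0.22 and MCM4 0.73 ± 0.45 (log2) in CL1-5 over CL1-0 without field, MCM2 0.12 and MCM5 -0.04, and MCM6 -0.36 and MCM7 -0.76. With the replicate block, MCM3, MCM4 and ORC6 passed as higher (adjusted p = 0.0026, 0.00946 and 0.0138) and MCM6 and MCM7 as lower (0.0471 and 0.00319). MCM3 averaged 12.57 ± 0.35 in CL1-5 and 11.88 ± 0.18 in CL1-0 without field (SD, n = 3 each). Under field the difference of MCM3 was 0.32 and of MCM4 0.06, neither past the test with or without the block, and MCM6 (-0.58, adjusted p = 0.00365) and MCM7 passed as lower with it. Of the 5 probe sets of MCM4, 4 passed the filter on low signals, and all 4 were higher in CL1-5 in both comparisons, between 0.06 and 1.49 under field, where the furthest (1.49 ± 0.37) passed when every probe set was tested by itself (adjusted p = 0.019, limma). Single arrays moved some of these values. Without replicate 2 of CL1-5 without field the difference of ORC6 was 0.32 and that of MCM4 0.44, and without replicate 1 of that group that of ORC6 was 1.09. MCM6 ran between -0.61 and -0.06 without field and between -0.79 and -0.27 under field when 1 array was left out.

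Helicase activation held 5 members. CDC45 passed without field (above), and MCM10, which helps the helicase to separate and move, was at -0.69 ± 0.30 without field and -0.92 ± 0.30 under field (adjusted p = 0.15 and 0.0529; 0.0315 and 0.00682 with the replicate block). All 3 MCM10 probe sets were lower in CL1-5, between -2.08 and -0.92 under field. The furthest (-2.08 ± 0.47) passed under field when every probe set was tested by itself (adjusted p = 0.0125, limma). It did not pass without field (-1.42 ± 0.47, adjusted p = 0.0773). On the probe sets used, the GINS subunits did not follow. GINS3 was at 0.71 ± 0.54 without field and 0.27 ± 0.54 under field, GINS1 at 0.33 and 0.06, and GINS2 at 0.02 and -0.29. GINS3 passed only without field and with the block (adjusted p = 0.0345, limma). That GINS3 difference was 0.30 without replicate 2 of CL1-5 without field and 1.27 without replicate 1 of the same group. The second GINS3 probe set was at 0.75 ± 0.27 without field and 0.71 ± 0.27 under field, with no call. The other GINS2 probe sets were at -1.97 ± 0.68 (adjusted p = 0.0825, limma) and 0.02 ± 0.57 under field. Without field they were at 0.19 and 0.43.

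The polymerase and primase genes differed little between the lines. The 6 members ranged from -0.16 to 0.83 (log2) without field and from -0.32 to 0.38 under field, and none passed the test without the block. POLD1, the catalytic subunit of polymerase delta, was the furthest at 0.83 ± 0.31 without field; it measured 10.14, 9.89 and 9.59 in CL1-5, against 9.51, 8.95 and 8.66 in CL1-0, where the groups did not overlap, and it passed with the replicate block (adjusted p = 0.0901 without it, 0.00118 with it).

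All 5 genes of the clamp and its loader were below 0 under field, from -0.93 for RFC5 to -0.09 for RFC3. None passed without the block; with it, RFC4, RFC5, PCNA and RFC2 were called lower in CL1-5. RFC4 averaged 11.69 ± 0.59 in CL1-5 and 12.45 ± 0.51 in CL1-0 under field (SD, n = 3 each), a difference of -0.76 ± 0.43, and was -0.80 ± 0.43 without field, with adjusted p of 0.00173 and 0.00141 under the block. PCNA, the sliding clamp, was -0.35 ± 0.26 under field and -0.12 ± 0.26 without it. RFC5 has an SE of 1.19, with replicate 1 far from the others: it measured 8.51, 12.47 and 12.18 in CL1-5 with field, against 10.17, 13.04 and 12.73 in CL1-0 with field. Without replicate 1 of CL1-5 with field, its difference was 0.35. Its other 2 probe sets were at -0.66 ± 0.30 and -0.64 ± 0.20 under field, lower in CL1-5 without a call (adjusted p = 0.187 and 0.0562, limma), and at -0.66 and -0.64 without field. When 1 array was left out, the differences under field ran between -0.57 and -0.16 for PCNA and between -0.74 and -0.11 for RFC2.

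In strand binding and maturation, the 4 members ranged from -0.25 to 0.18 without field and from -0.79 to 0.15 under field. RPA2, a subunit of the single-strand binding protein RPA, was at -0.79 ± 0.43 under field (adjusted p = 0.242, and 0.00895 with the block), and the flap nuclease FEN1 at -0.43 ± 0.32 (0.395 and 0.0384). Without replicate 1 of CL1-5 with field the difference of RPA2 was -0.24, and that of FEN1 ran between -0.66 and -0.24 when 1 array was left out. In nucleotide supply, apart from TK1, the thymidylate synthase TYMS was at -0.44 ± 0.16 under field (adjusted p = 0.0764, and 0.0181 with the block) and -0.21 ± 0.16 without it. The ribonucleotide reductase subunits RRM1 and RRM2 and the dUTPase DUT lay between -0.36 and 0.27 in both comparisons, with no call in either fit.

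The G1/S switch genes split between the cyclins. CCNE1, cyclin E1, was at -0.44 ± 0.23 without field and -0.69 ± 0.23 under field (adjusted p = 0.229 and 0.053; 0.0607 and 0.00663 with the block). CCNE2, cyclin E2, was at 1.66 ± 0.65 without field: it measured 9.93, 11.75 and 10.86 in CL1-5, against 8.65, 9.28 and 9.65 in CL1-0. The groups did not overlap, and the adjusted p was 0.104 without and 0.000449 with the replicate block. Its second probe set was 1.46 ± 0.31 higher in CL1-5 and passed when every probe set was tested by itself (adjusted p = 0.00945). Under field CCNE2 was 0.70 ± 0.65 (adjusted p = 0.509). Its second probe set was at 0.91 ± 0.31 under field, without a call (adjusted p = 0.0785, limma). CDC25A, the phosphatase that activates CDK2, was at -0.70 ± 0.42 without field and -0.75 ± 0.42 under field, past the test only under field with the block (0.0426).

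Of the other chromatin genes, the histone chaperone subunits CHAF1A and CHAF1B lay between -0.01 and 0.18 and UHRF1 at 0.13 without field and -0.52 under field, with no call. Of the checkpoint and repair genes besides UNG, the exonuclease EXO1 was at -0.61 ± 0.30 without field and -0.80 ± 0.30 under field (adjusted p = 0.0471 and 0.0125 with the block, 0.202 and 0.0856 without it), BRCA1 at -0.17 and -0.48, and CLSPN, which links the fork to CHK1, at -0.13 and -0.56. The second BRCA1 probe set was at 0.01 without field and 0.09 under field. The other CLSPN probe sets ran from -0.01 to 0.62 without field and from -0.28 to 0.96 under field, with no call.

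The field itself changed no member past the test in either line. In each field comparison, 0 of 48 members were called by limma with or without the replicate block (0% of all 13882 genes as well). On the probe set that stood for each gene, 0 members had an unadjusted p under 0.05 (limma). The SE of a member's field difference ran from 0.16 for TYMS to 1.19 for RFC5, and small differences were not detectable with 3 arrays a group.

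In CL1-5, the differences leaned one way without a call. The median of the 48 was -0.24 (log2, EF minus no EF), against -0.01 over all genes, and 45 of 48 lay below 0. The medians within replicate pairs 1, 2 and 3 were 0.03, -0.27 and -0.40, and pair 1 did not show the lean. Of the members, 21 (43.8%) were lower with field in all 3 pairs, against 14.9% of all genes and 6 of 40 G2/M genes; none was higher in all 3, against 14.2% of all genes. The G2/M genes, 37 of 40 below 0 with a median of -0.24 as well, had pair medians of 0.13, 0.15 and -0.93, below 0 only in pair 3. The arrays of each pair share a replicate number and the split of replicate 1 described above, and members are not independent of each other. The CL1-5 arrays with field, among them the low replicate 3, also entered the line comparison under field. The lean here and the lower values there are therefore not independent results.

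The 4 members with the smallest p in CL1-5 were TYMS, UNG, CDC6 and CLSPN. TYMS measured 13.60, 13.87 and 13.33 with field, against 13.79, 13.97 and 13.91 without field, a difference of -0.29 ± 0.16 (adjusted p = 1, limma). Its other probe sets were at -0.28 ± 0.24 and -1.72 ± 0.56, with no call. UNG measured 10.82, 11.72 and 11.48 with field, against 11.71, 12.03 and 11.49 without field (-0.40 ± 0.24). The pair differences were -0.89, -0.31 and -0.01. CDC6 measured 9.74, 11.03 and 10.23 with field, against 10.23, 11.50 and 11.07 without field (-0.60 ± 0.37), with pair differences of -0.49, -0.47 and -0.83. CLSPN measured 8.34, 8.74 and 7.64 with field, against 8.35, 9.29 and 8.61 without field (-0.51 ± 0.32). Its other probe sets ran from -1.08 to 0.20, with no call. The groups overlapped for all 4 genes, as for every member in CL1-5 (0 of 48 without overlap, against 5.66% of all genes). On the probe sets used, the licensing, helicase, polymerase, clamp, strand, nucleotide and checkpoint genes were all below 0. The 3 members above 0 were CCNE1 (0.04), CHAF1B (0.07) and SLBP (0.00). Over all tested probe sets, MCM6 ran from -0.16 to 1.01, MCM4 from -0.51 to 0.17 and GINS2 from -1.22 to 0.50. POLA2 ran from -0.32 to 0.25 and DUT from -0.23 to 0.20, and no probe set was called. Besides these and CLSPN, members of these roles with several probe sets had all of them below 0.

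**Figure D5:**
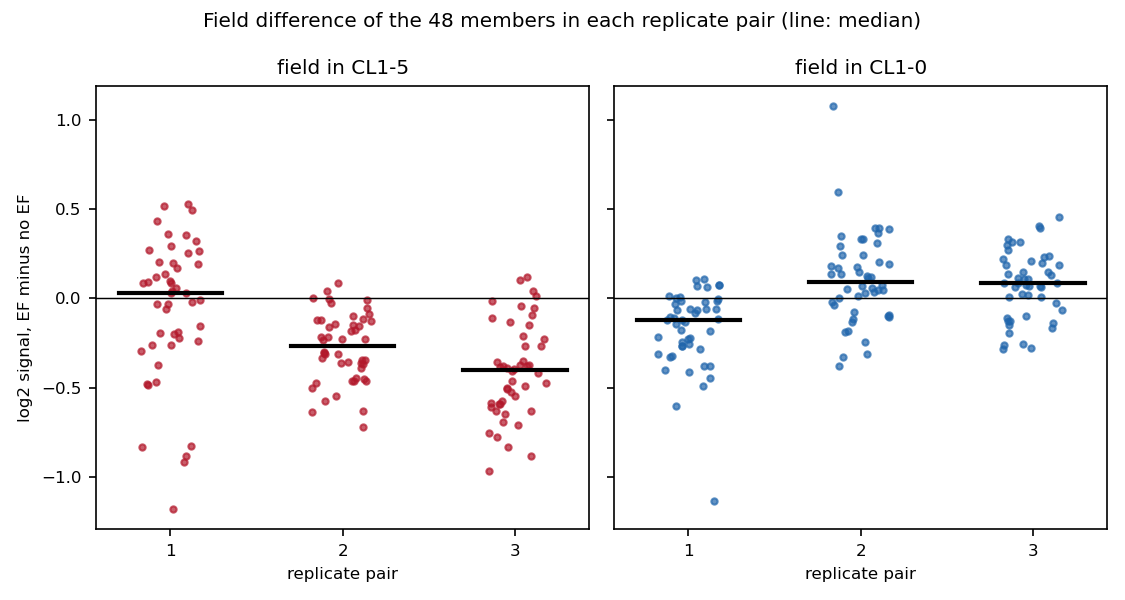
Difference in log2 signal, EF minus no EF, of the 48 genes within each replicate pair, for CL1-5 (left) and CL1-0 (right); bars are medians. The medians are 0.03, -0.27 and -0.40 in CL1-5 and -0.12, 0.09 and 0.09 in CL1-0.

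In CL1-0, the members lay on both sides of 0. The median was -0.01, against 0.01 over all genes, with 25 of 48 below 0 and pair medians of -0.12, 0.09 and 0.09. Members lower in all 3 pairs numbered 7 (14.6%, against 12.8% of all genes) and members higher in all 3 numbered 6 (12.5%, against 15%). The smallest p values belonged to CDC45, CCNE1, RRM1 and SLBP. CDC45 measured 9.86, 9.94 and 9.90 with field, against 10.35, 10.25 and 10.16 without field. It was the only member whose groups did not overlap in CL1-0 (2.08% of members, against 3.46% of all genes), and the difference was -0.36 ± 0.25 (adjusted p = 1, limma). CCNE1 measured 10.22, 10.61 and 10.16 with field, against 10.25, 10.02 and 9.86 without field (0.29 ± 0.23). RRM1 measured 12.25, 12.47 and 12.37 with field, against 12.43, 12.85 and 12.49 without field (-0.23 ± 0.24). SLBP measured 12.97, 13.44 and 13.37 with field, against 12.90, 13.05 and 13.30 without field (0.18 ± 0.19). The G2/M genes in CL1-0 had a median of -0.15, with 38 of 40 below 0 and none called.

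The test of whether the field difference itself differed between the lines called no member (0% of all genes). The field difference of CL1-5 minus that of CL1-0 had a median of -0.23 (log2) over the members, against -0.03 over all genes, with 40 of 48 below 0. The smallest p was that of UNG (-0.55 ± 0.34, adjusted p = 1, limma), followed by MCM3 (-0.37 ± 0.32), RPA2 (-0.66 ± 0.61) and MCM4 (-0.67 ± 0.64). Averaged over the lines, the field difference had a median of -0.12, with 44 of 48 below 0 and none called; CDC45 had the smallest p (-0.31 ± 0.17, adjusted p = 1, limma). These medians combine the same 12 arrays and add no evidence to the values in each line.

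Larger differences between the lines were measured in regulators upstream of these genes. In the list of 20 cyclins, CDKs, pocket proteins and E2Fs, 3 passed without field, 1 higher and 2 lower in CL1-5 (3 higher and 6 lower with the replicate block). Over all genes, 18% passed without field, 9.03% higher and 8.93% lower, and 35.5% passed with the block. CCND1, cyclin D1, measured 11.65 to 12.07 in CL1-5, against 6.12 to 6.49 in CL1-0 without field, a difference of 5.59 ± 0.36 (adjusted p = 1.15e-06, limma), and 4.87 ± 0.36 under field (3.52e-06). CCND3, cyclin D3, was at -1.34 ± 0.37 and CDK4, their kinase partner, at -0.48 ± 0.14 (adjusted p = 0.0253 and 0.0343), with E2F5, a repressive E2F, at -1.1 ± 0.40 (0.0828). Of the 7 CDK and licensing inhibitors tested, 3 were lower and 1 higher (4 and 1 with the block). CDKN2A, the locus of the CDK4 inhibitor p16 and of p14ARF, measured 6.17 to 6.90 in CL1-5, against 11.02 to 11.86 in CL1-0 without field, a difference of -4.91 ± 0.53 (adjusted p = 5.45e-05), and -5.99 ± 0.53 under field, where the CL1-5 values of 3.89 to 6.14 lay at or under the array median (-5.23 with such values raised to it). Its neighbour CDKN2B was at -3.81 ± 0.91 (adjusted p = 0.012) without field and -1.96 ± 0.91 under field (0.164); with signals under the array median raised to it, the difference without field was -0.46. CDKN2D was at -1.31 ± 0.26 (0.00427), and CDKN1A, which encodes p21, at 2.24 ± 0.57 (0.0172), with 2.32 ± 0.57 under field. The probe set of CDKN2A was named by gene only, and its 2 products cannot be told apart here.

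The calls in the other lists stand beside the same shares of all genes without field. Under field, 19.4% of all genes passed, and 38.1% with the block. Of 27 further replication genes, POLE4, a polymerase epsilon subunit, was higher in CL1-5 (1.15 ± 0.24, adjusted p = 0.00619, limma), and the origin subunit ORC5 (-0.91 ± 0.25, 0.0267) and the polymerase delta subunit POLD2 (-0.67 ± 0.21, 0.0494) were lower; the licensing kinase gene CDC7 was at 0.61 ± 0.22 (0.0793). With the replicate block, 5 of the 27 were higher and 6 lower. Under field, 1 of the 27 was higher and 3 were lower (3 and 7 with the block). Of 9 S-phase checkpoint genes, the kinase genes WEE1 (-1.29 ± 0.29, 0.00862) and CHEK2 (-0.69 ± 0.18, 0.0209) were lower in CL1-5, and RAD1 (0.42 ± 0.17) and HUS1 (-0.43 ± 0.20), clamp subunits of the checkpoint, did not pass; with the block 1 of the 9 was higher and 2 were lower. Without the block, none of 14 further nucleotide synthesis genes passed (NME1 had the smallest p, -0.50 ± 0.17, adjusted p = 0.0569), and none of 7 replication-coupled chromatin genes did (ASF1A, -0.71 ± 0.26, 0.0788). With the block, 2 of the 14 were lower, and 1 of the 7 was higher and 1 lower. Of 40 G2/M and mitosis genes, UBE2C was higher (1.01 ± 0.26, 0.0192) and PRC1 lower (-0.89 ± 0.26, 0.0341), with BIRC5 at -0.82 ± 0.28 and ESPL1 at -1.06 ± 0.42 and a list median of -0.22; with the block 1 of the 40 was higher and 7 were lower. The list medians without field ran from -0.44 for the inhibitors to 0.00 for the further replication genes, beside -0.09 for the 48 members and -0.03 for all genes.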

How the data were processed

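Total RNA from 12 cultures (4 groups of 3) was run on Affymetrix arrays with 54675 probe sets each. The deposited values are linear MAS5 signal intensities, per the submitters' processing notes and the values themselves, scaled to one trimmed mean per array; no other step is named there. From there, the 3691 intensities under 1 were set to 1, log2 was taken, probe sets with 1 gene symbol and above their array's median on at least 3 arrays were kept, and the probe set with the highest mean stood for a gene (13882 genes). Of the members, 20 have 1 probe set and 28 several. limma 3.58.1 in R 4.3.3 (lmFit, eBayes with trend) fitted 4 group means, with Benjamini-Hochberg adjustment over all genes and a threshold of 0.05; errors are the fit's SE (two-sided tests). The number of arrays limits the precision. The fit was tested on simulated data.

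The series gives 3 biological replicates a condition and no pairing. Deviations from group means of same-numbered arrays correlated at 0.187 to 0.609 over all genes in every compared pair. Those of differently numbered arrays correlated at up to 0.284. Replicate numbers were taken to pair the arrays because every same-number value was over 0.1. Values between replicates 2 and 3 of different groups were over 0.1 too, at 0.137 to 0.284. CL1-5 without field replicate 3 correlated at 0.284 with CL1-5 with field replicate 2, and at 0.187 with its replicate 3. The rule thus cannot tell replicates 2 and 3 apart, and their pairing rests on the numbers alone. No arrays were identical (highest correlation 0.927). Per-array values are given for members past the test between the lines and for the 4 members of smallest p in each field comparison; a few others (MCM3, CCNE2, POLD1, RFC5) were chosen after their values were seen. Of context lists, up to 4 genes of smallest p without field are named. Members, roles and lists were chosen with earlier results of these data known. CDKN2C and ATRIP had no single-symbol probe set and were not analysed here. Promoters came from RefSeq. Gene symbols came from the platform annotation.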

Additional observations from a re-analysis of the deposited data

How the results depend on the processing

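Each count of called members, and each called member's difference, was recomputed under another scaling, floor, filter, probe set rule, test, batch model and set of arrays. Of the single-member values, 1096 kept direction and side of the threshold, 97 gained a call, 22 lost one and 1 reversed: RFC5 under field, 0.35 without CL1-5 EF replicate 1, in a range of -1.83 to 0.35 when 1 array was left out. All field and interaction counts stayed at 0 in every fit run. For the lines without field, the count of 4 became 16 with the replicate block, 12 when arrays with and without spike-in signal were made a block, 12 on the arrays with spike-in signal alone and 7 when the probe sets of each gene were averaged, and it ran from 2 to 6 when 1 array was left out (2 without CL1-0 no EF replicate 2). Under field, the count of 4 became 19, 15 and 13 under the same 3 batch settings and 7 with the stricter filter, and it ran from 2 to 6 when 1 array was left out (2 without CL1-0 EF replicate 1 and without CL1-5 EF replicate 3). SLBP and E2F2 were called in all 12 fits that leave out 1 array in both comparisons; UNG was called in 9, CDC45 in 4, MCM7 under field in 10 and TK1 under field in 8. Settings restricted to the groups compared could not be fitted for the averaged and interaction contrasts. The cause was not tested for any of these shifts. With 3 arrays a group and a median SE of 0.37 over all genes, small differences were not detectable.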
